A study of Homo sapiens with 4 samples.

Results

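HT29, an established human colorectal adenocarcinoma cell line, was cultured in 2 ways and its small RNA was sequenced. The parental cells grew in DMEM with 10% FBS. The spheres, labelled by the submitters as sphere-derived cancer stem cells, grew in DMEM-F12 to which the N2 Plus supplement, bFGF and EGF (10 ng/ml of each factor) were added, and both media held penicillin-streptomycin. The comparison asked which miRNAs differ between such spheres and the parental cells. It covers all 1921 mature miRNA names listed for HT29, in the 2 HT29 libraries of a series of 4 libraries; the others are of the line HCT15. Each culture had 1 library, made from total RNA. No difference below has a replicate check, and the ratios compare these libraries, not the conditions. The labels state no passage number, time in culture or sort, and the media differ along with the growth form, so medium and sphere growth cannot be told apart.

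A miRNA is cut from one side of a hairpin precursor, its 5p or 3p arm, and guides an Argonaute protein to messenger RNAs that pair with its seed, bases 2 to 8 from its 5′ end, lowering their stability and translation. miRNAs that share a seed form a family with overlapping targets, and hairpins that lie close together are often cut from 1 primary transcript. In intestinal epithelium miR-192, miR-194, miR-215 and miR-375 are characteristic miRNAs, and in colorectal tumours miR-21, miR-31 and miR-135b are known for high levels.

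miRNAs with high ratios of spheres over parental cells, and members of their families, are shown here by mature sequence, with those that share a seed set together. They are written 5′ to 3′ with the seed in capitals, from RefSeq on GRCh38.p14. The names miR-1, miR-152, miR-210, miR-215, miR-372 and miR-375 carry no arm in these data and were matched to the arm that miRBase later named.
miR-146a-5p: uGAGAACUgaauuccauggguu
miR-146b-5p: uGAGAACUgaauuccauaggcug
miR-148a-3p: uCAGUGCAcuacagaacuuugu
miR-148b-3p: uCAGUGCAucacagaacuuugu
miR-152: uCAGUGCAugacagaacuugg
miR-192-5p: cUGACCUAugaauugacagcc
miR-215: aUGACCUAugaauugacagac
miR-372: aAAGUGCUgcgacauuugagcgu
miR-373-3p: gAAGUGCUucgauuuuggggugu
miR-375: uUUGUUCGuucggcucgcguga
miR-210: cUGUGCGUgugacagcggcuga
miR-1: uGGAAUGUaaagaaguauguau
miR-1246: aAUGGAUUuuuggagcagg
miR-1290: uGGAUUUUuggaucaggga
miR-1307-5p: uCGACCGGaccucgaccggcu
Counted from 1 at the 5′ end, miR-146a-5p and miR-146b-5p differ by G18A and U21C over their shared length. miR-192-5p and miR-215 differ by C1A and C20A, outside the seed.

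miRNAs with low ratios, and members of their families, are shown in the same way because several of them are pairs that differ by a single base.
miR-15a-5p: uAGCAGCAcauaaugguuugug
miR-15b-5p: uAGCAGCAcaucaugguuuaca
miR-16-5p: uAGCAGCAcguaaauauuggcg
miR-18a-5p: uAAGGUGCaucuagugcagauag
miR-18b-5p: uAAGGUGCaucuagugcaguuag
miR-19a-3p: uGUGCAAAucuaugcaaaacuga
miR-19b-3p: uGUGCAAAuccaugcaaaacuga
miR-135a-5p: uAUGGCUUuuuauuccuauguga
miR-135b-5p: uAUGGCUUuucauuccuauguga
miR-196a-5p: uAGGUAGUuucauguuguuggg
miR-196b-5p: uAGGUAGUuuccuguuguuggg
miR-301a-3p: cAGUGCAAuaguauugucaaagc
miR-455-3p: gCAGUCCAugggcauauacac
miR-615-3p: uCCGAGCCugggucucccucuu
The differences are A20U between miR-18a-5p and miR-18b-5p, U11C between miR-19a-3p and miR-19b-3p, U11C between miR-135a-5p and miR-135b-5p, and A12C between miR-196a-5p and miR-196b-5p. miR-31-3p, miR-4664-5p and, among the higher ones, miR-4792 are named only. The seeds of miR-148a-3p (higher), miR-301a-3p and miR-19a-3p (both lower) overlap: they share GUGCA, each shifted by 1 base.

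The last set holds families whose members lay on both sides of the parental level, shown to compare their letters.
let-7a-5p: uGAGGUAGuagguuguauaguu
let-7c: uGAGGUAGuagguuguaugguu
let-7d-5p: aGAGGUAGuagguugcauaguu
let-7f-5p: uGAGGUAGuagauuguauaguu
miR-29a-3p: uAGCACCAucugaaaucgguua
miR-29b-3p: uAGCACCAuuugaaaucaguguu
miR-29c-3p: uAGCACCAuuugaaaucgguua
miR-30a-5p: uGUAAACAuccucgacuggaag
miR-30c-5p: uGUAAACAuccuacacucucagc
miR-30e-5p: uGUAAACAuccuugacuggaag
Against let-7a-5p the others read A19G in let-7c, G12A in let-7f-5p, and U1A with U16C in let-7d-5p. miR-29a-3p and miR-29c-3p differ by C10U, and miR-30a-5p and miR-30e-5p by C13U.

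Listed reads came to 5806540 in the parental library and 12794274 in the sphere library, which was thus 2.20 times as deep. At least 1 read was found for 1005 names in parental cells and 1090 in spheres, with 924 read in both and 750 in neither. A count of 0 allows up to 3 reads, or 0.517 CPM (reads per 1000000 listed reads) in parental cells and 0.234 CPM in spheres. The epithelial identity of the line was seen in both libraries: 9 of 9 colon epithelium markers had reads and held 17.5% of parental and 23.9% of sphere reads. Markers of fibroblasts and smooth muscle summed to 39 and 94 reads, with miR-214 at 0 in both and miR-145-5p at 1 and 0. Embryonic stem cell markers, the miR-302 and miR-367 names, summed to 1 and 4 reads, and 3 of the 5 had none. Of the blood-cell markers, 5 of 6 had a read in parental cells and 6 in spheres, but miR-142-3p held 2214 of 2361 and 4693 of 4861 of those reads, while miR-223-5p, a myeloid marker, had 0 and 1. As in any bulk sample, more cells of a type and more RNA per cell cannot be told apart.

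The sphere library was more concentrated in its most abundant miRNAs. miR-21-5p and miR-192-5p together took 26.6% of parental reads and 40.0% of sphere reads, so that all other names shared 73.4% and 60.0%. The 10 most abundant names took 52.0% and 64.5%, and 6 names were among the 10 in both libraries. This matters for every ratio. Levels below are scaled CPM, which is CPM after TMM. TMM sets the trimmed mean of the ratios to no change, and ratios are log2 of spheres over parental cells. Scaling to total listed reads in place of TMM lowers the ratios of the 226 miRNAs averaging 50 CPM or more by 0.79, and those of scarce names by less, because of the prior count. The other scalings tried lie between these 2, with shifts of -0.07 to -0.35. At 50 CPM or more, a ratio above 0 by less than this shift therefore turns negative under total reads, and one above 1 by less than it is no longer 2-fold. Each interval is an exact 95% interval that covers counting error only, since each culture had 1 library. The reads carry no molecular identifiers, so copies of 1 molecule count as separate reads and the intervals can be too narrow even for counting error.

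The 226 miRNAs averaging 50 CPM or more held 99.5% of parental and 99.7% of sphere reads. In spheres 39 of them (17.3%) were higher by 2-fold or more and 34 (15%) were lower by as much. The median ratio was 0.22, with the middle 50% between -0.42 and 0.88. Under total reads 11 were 2-fold higher and 74 lower. The calls that held under all 6 scalings numbered 11 higher and 34 lower. The other scalings only lower the ratios from TMM, so the 34 lower calls had to hold and only the higher calls were put to a check. The sign itself depended on the scaling for 71 of the 226. Counting error, as these intervals give it, was small against these differences. The median interval was 0.15 wide and the widest 0.55, and 210 intervals excluded 0. In reads, the 39 higher miRNAs went from 33.5% to 51.2% of the library and the 34 lower ones from 5.70% to 1.23%.

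Differences of either sign occurred at all levels except the top. Among the 19 miRNAs with a mean of 10000 CPM or more, 4 were 2-fold higher and 0 lower, with a median ratio of 0.71 that turned negative under total reads. Between 1000 and 10000 CPM, 11 of 63 were higher and 9 lower. Between 200 and 1000 CPM, 15 of 71 were higher and 9 lower, and between 50 and 200 CPM 9 of 73 were higher and 16 lower.

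**Figure D1:**
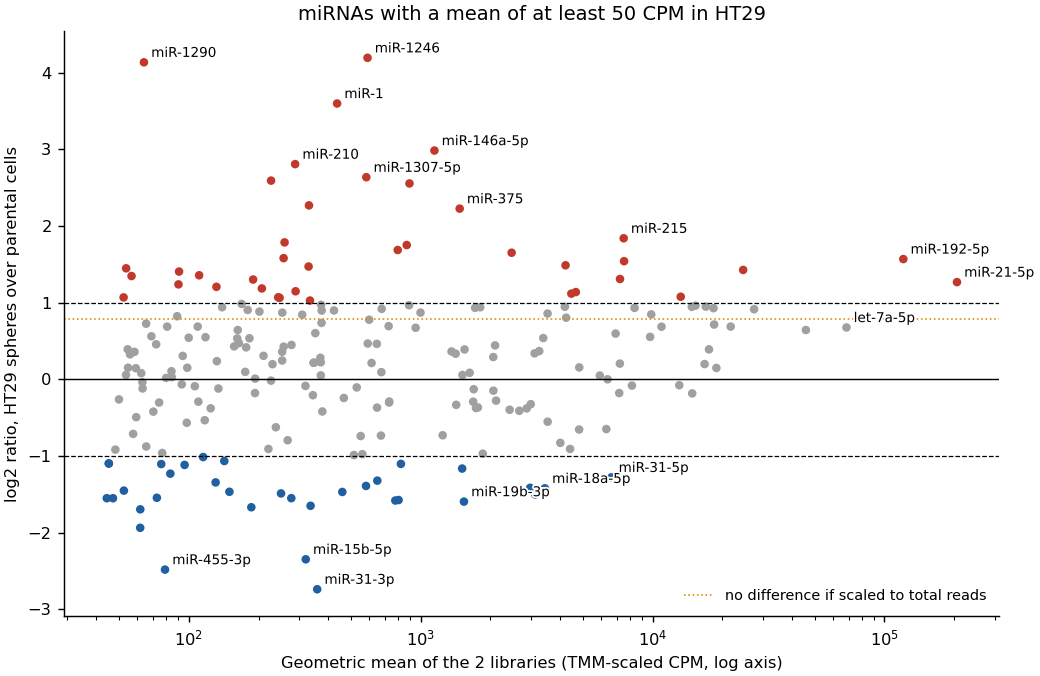
Log2 ratio of spheres over parental cells (y) against the geometric mean of the 2 HT29 libraries in TMM-scaled CPM (x, log axis) for 226 miRNAs, 1 point each; dashed lines mark 2-fold and the dotted line marks where no difference lies when libraries are scaled to total reads. The 39 red points are at least 2-fold higher, the 34 blue ones at least 2-fold lower, and the 2 points farthest right, miR-192-5p and miR-21-5p, lie above the upper dashed line.

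Among the miRNAs of gut epithelium, miR-192-5p was read 534900 times in the parental and 2019707 times in the sphere library, or 70002 and 207738 scaled CPM (ratio 1.57, interval 1.56 to 1.57). Its near-identical family member miR-215 had 30322 and 138159 reads (1.84, interval 1.82 to 1.86). Their family, seed UGACCUA, went from 9.73% to 16.9% of all reads. miR-375, a miRNA of endocrine and mucosal epithelial cells, had 5203 and 31011 reads (2.23, interval 2.19 to 2.27). miR-194-5p, whose hairpins neighbour those of miR-192 and miR-215, had 116921 and 194991 reads and a ratio of 0.39 that turned to -0.40 under total reads. Of these 4 miRNAs, 3 were at least 2-fold higher and 0 lower, with a median of 1.70, and miR-375 and miR-215 stayed 2-fold higher under all 6 scalings. Over all 361 miRNAs averaging 10 CPM or more, the level asked of list members, 64 (17.7%) were higher and 51 (14.1%) lower, with a median of 0.15. These shares and this median are the background for each list below.

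The miR-146 family, induced by NF-kB signalling and known to repress TRAF6 and IRAK1, was higher in the sphere library. miR-146a-5p had 3114 and 31398 reads, 408 and 3229 scaled CPM (2.99, interval 2.93 to 3.04). miR-146b-5p had 3392 and 13904 reads (1.69, interval 1.63 to 1.74). The parental library held about as many reads of one as of the other, and the sphere library held more of miR-146a-5p, a difference between their ratios of 1.30 that does not depend on scaling. miR-155-5p, another NF-kB target, had 276 and 739 reads (1.07, interval 0.87 to 1.28), so its interval reached below 2-fold. All 3 of this list were thus higher by 2-fold, with a median of 1.69, and under total reads only miR-146a-5p of them was. miR-210, the best-known miRNA induced by hypoxia, had 830 and 7410 reads (2.81, interval 2.71 to 2.92). miR-671-5p, also among the 12 highest ratios, had 1065 and 4681 reads (1.79).

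The family of miR-148a, miR-148b and miR-152, whose members repress DNMT1, was higher in all 3 members. miR-148a-3p had 2820 and 21112 reads (2.56), miR-152 had 1148 and 7052 (2.27), and miR-148b-3p had 10642 and 42556 (1.65). Summed, the seed CAGUGCA went from 0.252% to 0.553% of reads (1.93, interval 1.90 to 1.95). On GRCh38, MIR152 (chromosome 17, 48037161 to 48037247, minus strand) sits in an intron of COPZ2, and MIR148B (chromosome 12, 54337216 to 54337314, plus strand) in one of its paralog COPZ1. No host gene is annotated on the strand of MIR148A (chromosome 7, 25949919 to 25949986, minus), and the 3 come from separate loci. Under total reads miR-148b-3p, at 0.86, was no longer 2-fold higher.

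Of the miRNAs averaging 50 CPM or more, the 2 with the highest ratios were miR-1246 and miR-1290, entries that need care. miR-1246 was read 1053 times in the parental and 24592 times in the sphere library, 138 and 2529 scaled CPM (4.20, interval 4.11 to 4.29). miR-1290 had 116 and 2634 reads (4.14, interval 3.89 to 4.44), and miR-4792 had 704 and 5416 (2.59). These 3 are among the names for which fragments of other RNAs can be counted. Of 10 such entries at 10 CPM or more, 4 were higher and 1 lower, with a median of 0.56 that turned to -0.23 under total reads; the fourth was miR-664-5p (1.16) and the lower one miR-4485 (-1.71). Whether these reads came from miRNA hairpins was not tested.

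miR-1, a miRNA of skeletal and heart muscle, had 957 and 14785 reads (3.60, interval 3.51 to 3.70). Its partners in muscle were scarce: miR-133a, whose hairpins share both host transcripts of miR-1, had 4 and 35 reads (2.35, interval 1.30 to 4.74), and miR-206 and miR-133b had 5 reads each in the sphere library and 0 in the other. Of the 4 muscle markers, only miR-1 exceeded 10 CPM. MIR1-1 (chromosome 20, 62554306 to 62554376, plus strand) sits in an intron of MIR1-1HG and MIR1-2 (chromosome 18, 21829004 to 21829088, minus strand) in an exon of MIR133A1HG.

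Of the cluster from miR-371a to miR-373, which is typical of pluripotent cells, the members with reads were higher but scarce. miR-373-3p had 84 and 797 reads (2.87, interval 2.57 to 3.24), miR-371a-5p had 119 and 729 (2.25) and miR-372 had 132 and 504 (1.57). At 11.0 to 17.3 scaled CPM in parental cells and 51.8 to 82.0 in spheres, they remained far under the abundant families. All 3 members at 10 CPM or more were at least 2-fold higher, miR-372 not under total reads (0.79), while miR-371b-5p had 0 and 1 read. The cluster of miR-302 and miR-367, whose miR-302b-3p shares the seed of miR-372 and miR-373-3p, stayed at or under 3 reads for each member in either library, so no change was detectable there.

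**Figure D2:**
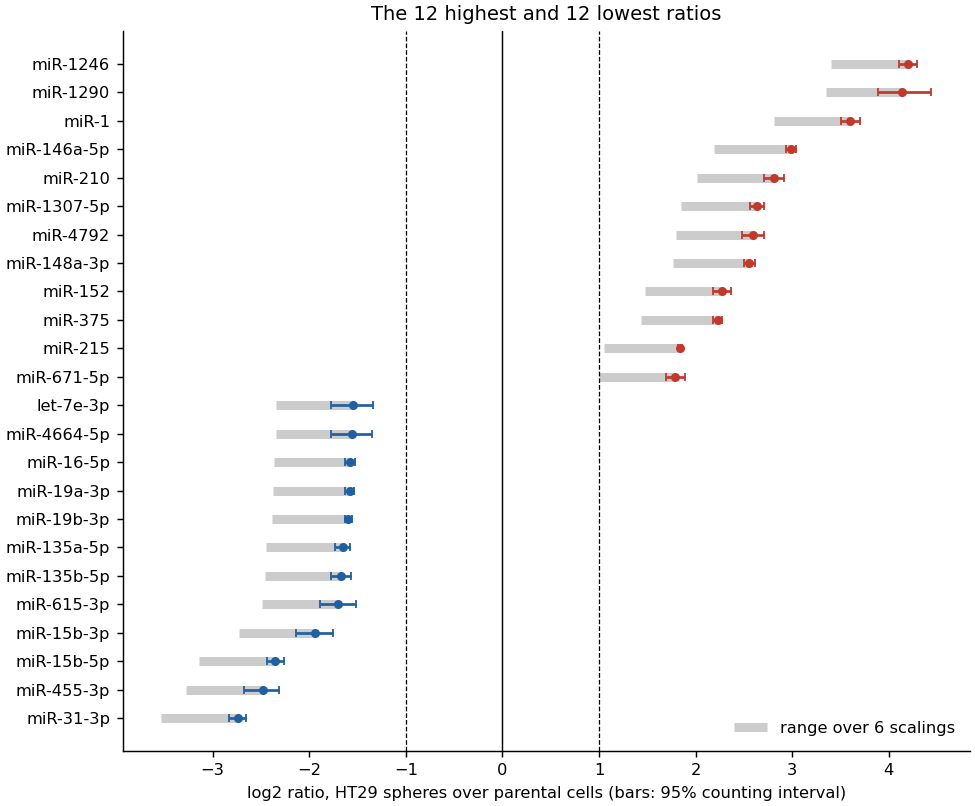
The 12 highest (red) and 12 lowest (blue) log2 ratios of spheres over parental cells at an average of 50 CPM or more; points are the TMM-scaled ratio, bars its 95% counting interval and grey bands the range over 6 scalings. The scaling moves each ratio by more than its counting interval spans, up to 0.79 downwards from the point. Every ratio shown is past 2-fold, so a shift of this size cannot change its sign.

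On the lower side, miR-31 stood out through both arms. miR-31-5p, abundant in many colorectal tumours, had 79168 and 41472 reads, 10361 and 4266 scaled CPM (-1.28, interval -1.30 to -1.26). miR-31-3p had 7081 and 1346 reads (-2.74, interval -2.83 to -2.66), the lowest ratio at this level. MIR31 (chromosome 9, 21512115 to 21512185, minus strand) sits in an intron of MIR31HG. miR-135a-5p, a repressor of APC like its family member miR-135b-5p, had 4544 and 1839 reads (-1.65), and miR-135b-5p had 2541 and 1014 (-1.67). They differ by 1 base, so their reads cannot be fully told apart and they may not be separate measurements. Of 6 miRNAs known as high in colorectal tumours, 3 were at least 2-fold lower and 2 higher, namely miR-21-5p (1.27) and miR-452-5p (1.49). The sixth, miR-224-5p, had 0.46, and the median of the list was -0.41.

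The miR-15/16 family, known for repressing BCL2 and cyclins, was lower in 3 of 4 members at 10 CPM or more, with a median of -1.47. miR-15b-5p had 5520 and 1376 reads (-2.35, interval -2.44 to -2.27), miR-16-5p had 10605 and 4524 (-1.58) and miR-424-5p had 388 and 190 (-1.37). miR-15a-5p, with 3880 and 4169 reads, had a ratio of only -0.24, or -1.04 under total reads. MIR15B and MIR16-2 form a cluster in an intron of SMC4 (chromosome 3, 160404588 to 160404825, plus strand). All 4 arms of that cluster were lower, from miR-15b-5p and miR-15b-3p (-1.94) to miR-16-5p and miR-16-2-3p (-1.16). The other cluster, MIR15A with MIR16-1 in DLEU2 on chromosome 13, makes the same miR-16-5p together with miR-15a-5p, so reads of miR-16-5p cannot be assigned to a locus. miR-195-5p, miR-497-5p and miR-503 of the family had 6 to 30 reads in either library.

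The miR-17~92 cluster is a MYC-induced oncogenic cluster of 6 hairpins in MIR17HG (chromosome 13, 91350605 to 91351391, plus strand). Its arms with more reads split by seed. miR-19a-3p had 10290 and 4370 reads (-1.58), miR-19b-3p had 20437 and 8595 (-1.60) and miR-18a-5p had 42984 and 20386 (-1.42). These 3 were at least 2-fold lower under TMM, and so under all 6 scalings, since the others only lower the ratios. miR-19a-3p and miR-19b-3p differ by 1 base, so their reads cannot be fully told apart. By contrast miR-17-5p (-0.41), miR-20a-5p (-0.18) and miR-92a-3p (-0.08) of the same cluster lay close to the parental level under TMM, and at -1.20, -0.97 and -0.87 under total reads. miR-19b-3p and miR-92a-3p are also made from a paralog cluster on chromosome X, so their reads cannot be assigned to a locus. The other arms of the MIR17HG hairpins ran from -2.14 for miR-19b-1-5p and -1.82 for miR-92a-1-5p to 0.22 for miR-17-3p. The summed seed family of miR-17-5p, AAAGUGC, had a ratio of -0.06, with members from -0.65 for miR-106b-5p to 0.55 for miR-93-5p, the latter turning negative under total reads. The 6 members as a list had a median of -0.92, with 3 lower and 0 higher. Of 6 paralogs at 10 CPM or more, 1 was 2-fold lower, miR-18b-5p, and their median was -0.42. miR-18b-5p had 37046 and 17654 reads. From the same paralog cluster miR-106a-5p had 17805 and 18674 (-0.28), miR-20b-5p had 122 and 136 and miR-363-5p had 0 in both. Since miR-18b-5p differs from miR-18a-5p by 1 base, its counts cannot be told apart from reads of miR-18a-5p. The same holds for miR-106a-5p, which differs from miR-17-5p by 1 base.

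The family of miR-130b, miR-301a and miR-454 was lower in 3 of 4 members at 10 CPM or more, with a median of -1.41. miR-301a-3p had 5848 and 2683 reads (-1.47), miR-301b had 1906 and 875 (-1.47) and miR-454-3p had 1593 and 796 (-1.35). The most abundant member, miR-130b-3p, had 25530 and 25931 reads and a ratio of -0.32, or -1.12 under total reads. MIR301A (chromosome 17, 59151136 to 59151221, minus strand) and MIR454 both lie in introns of SKA2.

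miRNAs of the HOX gene clusters, which mark position along the body axis, were split by family. miR-196a-5p had 17285 and 9805 reads (-1.17), miR-196b-5p had 9216 and 5452 (-1.10) and miR-615-3p had 853 and 333 (-1.70). The abundant miR-10a-5p and miR-10b-5p had ratios of 0.15 and 0.20, which turned to -0.64 and -0.59 under total reads. Of these 5, 3 were at least 2-fold lower and 0 higher, with a median of -1.10. miR-196a-5p and miR-196b-5p, both among the lower ones, differ by 1 base, so their reads cannot be fully told apart. miR-455-3p, cut from an intron of the collagen gene COL27A1, had 1433 and 324 reads (-2.48, interval -2.67 to -2.32). miR-4664-5p was also among the 12 lowest, with 619 and 267 reads (-1.55).

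**Figure D3:**
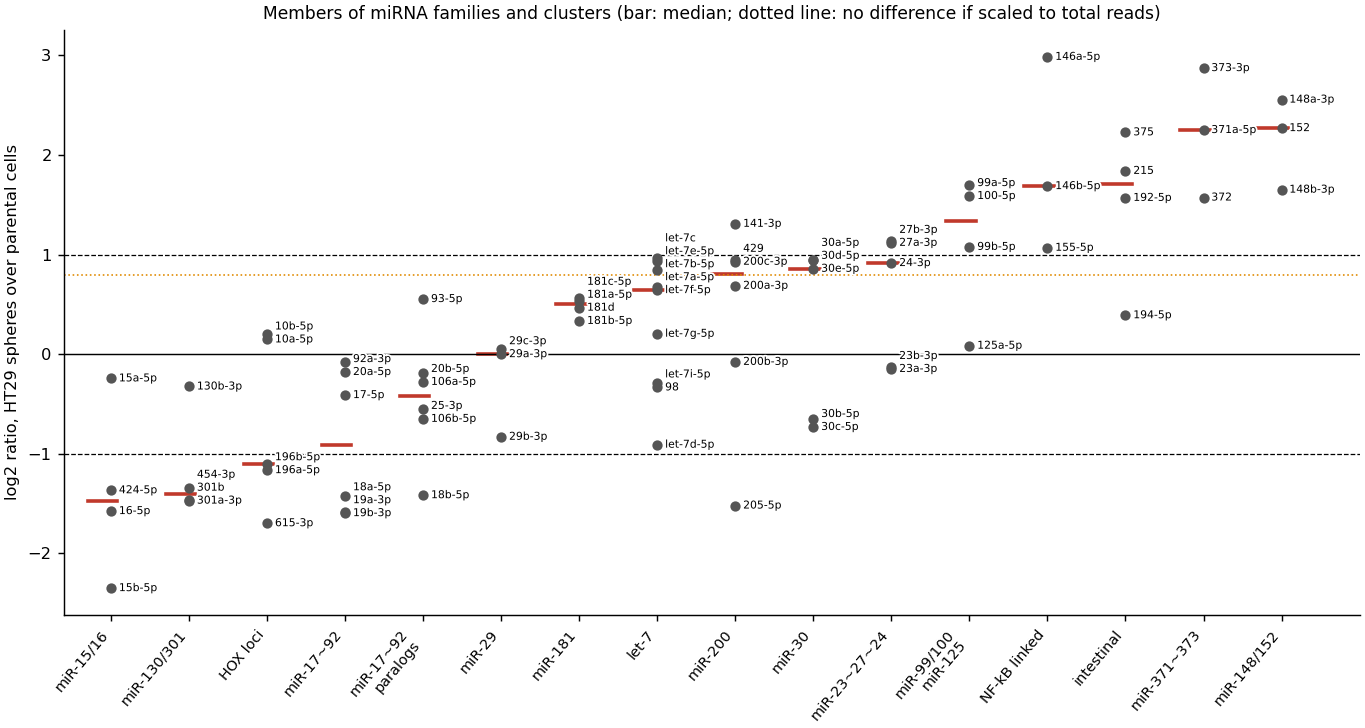
Log2 ratio of spheres over parental cells (y) for members averaging 10 CPM or more of 16 miRNA families, clusters and lists (x), 1 point a miRNA; red bars are list medians, dashed lines 2-fold and the dotted line no difference when scaled to total reads. The miR-148 with miR-152, the miR-371a to miR-373 and the NF-kB linked members all lie above the upper dashed line, whereas let-7, miR-30, miR-200 and miR-232724 have members on both sides of 0.

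Several families were not uniform. The let-7 family, which favours differentiation and is repressed by LIN28, held 17.3% of parental and 15.5% of sphere reads. Its 9 members ranged from -0.91 for let-7d-5p (46177 and 31278 reads) to 0.96 for let-7c (83914 and 207854), with 0 past 2-fold and a median of 0.64 that turned to -0.15 under total reads. let-7a-5p (0.68), let-7f-5p (0.64) and let-7d-5p come from neighbouring hairpins on chromosome 9 (94175957 to 94178920, plus strand), so miRNAs of 1 locus differed by 1.59. let-7a-5p and let-7f-5p are also made from other loci. let-7c and let-7f-5p each differ from let-7a-5p by a single base, so reads of these names cannot be fully told apart. Under total reads let-7d-5p, let-7i-5p and miR-98 were at least 2-fold lower.

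The miR-30 family was divided in a similar way: miR-30a-5p (93395 and 229313 reads, 0.95), miR-30d-5p (0.95) and miR-30e-5p (0.86) had like ratios, and miR-30b-5p (-0.66) and miR-30c-5p (12258 and 9395 reads, -0.73) had negative ones. MIR30E and MIR30C1 are neighbours on chromosome 1, and miR-30e-5p and miR-30c-5p differed by 1.59. The name miR-30c-5p is not limited to MIR30C1, so its reads cannot be assigned to that locus. Under TMM 0 of the 5 passed 2-fold, and the median was 0.86; under total reads miR-30b-5p (-1.45) and miR-30c-5p were past it on the lower side. In the miR-29 family, repressors of collagens and of DNMT3 enzymes, miR-29a-3p (48923 and 62233 reads) and miR-29c-3p (0.05) were level between the libraries under TMM and at -0.79 and -0.74 under total reads. miR-29b-3p, a neighbour of both in the genome, had 40773 and 29187 reads (-0.83, or -1.62 under total reads). The median of these 3 under TMM was that of miR-29a-3p, -0.00034, with 0 past 2-fold. miR-30a-5p and miR-30e-5p differ by a single base, as do miR-29a-3p and miR-29c-3p, so the reads of each pair cannot be fully told apart.

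In the miR-232724 clusters on chromosomes 19 and 9, paralogs had like ratios and neighbours did not. miR-27a-3p had 23165 and 63967 reads (1.12) and miR-27b-3p had 24051 and 67352 (1.14). miR-23a-3p and miR-23b-3p had ratios of -0.15 and -0.13, and miR-24-3p, made by both clusters, had 0.91. The list thus had 2 of 5 members at least 2-fold higher and a median of 0.91. miR-27a-3p and miR-27b-3p differ by C19U and miR-23a-3p and miR-23b-3p by U19A over their shared length, so the reads of each pair cannot be fully told apart.

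Among the miR-200 family, which maintains epithelial identity by repressing ZEB1 and ZEB2, miR-141-3p had 35140 and 110782 reads (1.31), and miR-200c-3p (0.93) and miR-429 (0.95) were close below 2-fold. miR-200a-3p had 0.69 and miR-200b-3p -0.08, and both were negative under total reads. miR-205-5p, a miRNA of stratified epithelium listed with them, had 29.1 and 9.98 scaled CPM (-1.52). The list had 1 member higher and 1 lower of 6, with a median of 0.81.

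The miR-99/100 and miR-125 group had 3 of 4 members at least 2-fold higher and a median of 1.33. miR-99b-5p, the abundant one, had 69611 and 186870 reads (1.08), miR-99a-5p had 116 and 484 (1.70) and miR-100-5p had 198 and 762 (1.59). miR-99a-5p and miR-100-5p differ by a single base, so their reads cannot be fully told apart and they may not be separate measurements. miR-125a-5p, a neighbour of miR-99b-5p and let-7e-5p (0.93), had 0.08. None of the 3 higher ones stayed 2-fold higher under total reads.

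Beside let-7, miR-30 and miR-29, families with every member within 2-fold under TMM included the miR-181 family (4 members, median 0.50), the miR-183 cluster (3 members, median 0.60) and miR-26 with miR-101 (3 members, median 0.06), each with a median that turned negative under total reads. The same held for the pair of miR-221 and miR-222, with miR-221-3p at 0.80 and miR-222-3p at -0.40 although they share a seed and a host gene, and a median of 0.20. Under total reads miR-96-5p of the miR-183 cluster (-1.10) and miR-222-3p (-1.19) were past 2-fold. miR-34a-5p, a p53 target, had -0.30, or -1.09 under total reads, and miR-34b-5p had 0 reads in both libraries. Of miR-193 and miR-365, 2 of 4 were lower, with a median of -0.86; these 2 were miR-365a-3p and miR-365b-3p, identical in sequence and both listed with 507 and 300 reads, so they are 1 measurement. Of miR-28 and miR-708, miR-151a-3p was higher (1.43) and miR-28-3p was at 0.97, for a median of 1.20. Of miR-191 and miR-425, miR-425-5p was lower (40140 and 18012 reads, -1.50) and miR-191-5p at 0.34, for a median of -0.58.

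In the remaining lists, miR-203, which is abundant in epithelia, had 33767 and 125071 reads (1.54), miR-22-3p had 0.67 and miR-7-5p -0.97, for a median of 0.67 and 1 of 3 higher. Of 6 entries made from short hairpins or capped precursors, 1 was lower, miR-484 (467 and 209 reads, -1.50), and their median of 0.30 turned negative under total reads. Of nerve-cell miRNAs, miR-128 had 7201 and 3489 reads (-1.39), miR-219-5p had 149 and 65 reads (-1.51) and miR-9-5p had 9.95 and 15.6 scaled CPM (0.64), for a median of -1.39 and 2 of 3 lower, while miR-124-3p, a defining marker, had 1 and 0 reads. miR-126-3p, an endothelial miRNA, had 768 and 1877 reads (0.94). Liver's miR-122-5p had 1 and 8 reads. Of 10 miRNAs of the DLK1-DIO3 locus, only miR-379-5p exceeded 10 CPM, at 167 and 272 reads (0.35). Of 12 of the C19MC cluster 0 did, the most being miR-516a-5p with 2 and 23 reads. The blood-cell list had a median of 0.12 over 2 members, miR-142-3p (0.74) and miR-150-5p (-0.50).

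Reads summed over seeds gave 28 families with at least 500 CPM and 2 or more members, of which 7 were higher and 5 lower by 2-fold or more. The highest were those of miR-146 (2.45), miR-148 with miR-152 (1.93), miR-192/215 (1.59), the 3p arms of miR-30a and miR-30e with seed UUUCAGU (1.41) and miR-21-5p with miR-590-5p (1.26). Of these 5, the first 2 stayed 2-fold higher under total reads. The lowest were those of miR-135 (-1.66), miR-19 (-1.59), miR-18 (-1.42), miR-15/16 (-1.34) and miR-196 (-1.14). In 10 of the 28 the members lay on both sides of 0. The family of miR-21-5p is one of them: miR-590-5p, which shares its seed AGCUUAU, was at -1.49 but held few of the reads.

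Pairs of miRNAs were also compared by likeness of sequence and by distance in the genome. The median size of the difference between 2 ratios was 1.00 over all 19503 pairs of miRNAs. It was 0.15 for 34 pairs with the same seed and up to 2 base differences, and 0.74 for 72 pairs with the same seed and more differences. For 67 pairs with different seeds whose hairpins lie within 10 kb on 1 strand it was 1.01, close to that of all pairs. These differences are free of scaling. Names made from several loci can be among the neighbouring pairs, and their reads cannot be assigned to the neighbouring hairpin. The near-identical pairs can share reads, and let-7a-5p with let-7d-5p (1.59) and miR-146a-5p with miR-146b-5p (1.30) show that 2 base differences did not always give like counts. Among groups of hairpins within 10 kb, the widest spread was at the miR-532 to miR-502 cluster in CLCN5 (chromosome X, 50003148 to 50014683, plus strand), where the main arms ran from -1.45 for miR-502-3p to 0.97 for miR-532-5p.

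The 2 arms of 1 hairpin are cut from the same precursor, and their difference in ratio does not depend on scaling. Arms were paired by name. A name made from several hairpins brings reads of all of them into its pair. Such pairs do not compare arms of the same precursor alone, and they were not taken out. Reads of a near-identical name can also enter a pair. In 88 hairpins both arms averaged 10 CPM or more, and in 34 of them the arms differed by at least 2-fold between the libraries. The median size of the difference was 0.73, and 77 of 88 intervals excluded 0. In 49 of 88 the arm with more reads in parental cells was relatively higher in spheres, and the median difference in favour of that arm was 0.21 over all 88. The difference reached 2-fold in favour of that arm in 24 hairpins and against it in 10. With the major arm taken from the reads of both libraries, where the sphere reads help to choose it, the major arm was relatively higher in 55, by a median of 0.44, with 27 past 2-fold in favour and 7 against; both definitions were set after the data were seen. In 37 the arms lay on opposite sides of 0 under TMM.

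Arm sequences of the hairpins with the largest differences in each direction are shown to place these values.
miR-135b-5p: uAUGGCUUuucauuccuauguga
miR-135b-3p: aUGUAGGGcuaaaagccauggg
let-7e-5p: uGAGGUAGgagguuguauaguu
let-7e-3p: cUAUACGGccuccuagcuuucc
miR-455-5p: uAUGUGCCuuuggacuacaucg
miR-455-3p: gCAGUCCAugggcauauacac
miR-135b-5p went from 2541 to 1014 reads and miR-135b-3p from 512 to 1154, so the 5p arm made up 83.2% of the hairpin's reads in parental cells and 46.8% in spheres (difference of ratios -2.50, interval -2.68 to -2.31). let-7e-5p went from 46273 to 112328 reads and let-7e-3p from 582 to 251, a difference of 2.49 (interval 2.28 to 2.71) in favour of the abundant arm. miR-135b-5p differs from miR-135a-5p, and let-7e-5p from the more abundant let-7a-5p, by a single base. Reads of such names cannot be fully told apart, so these arm differences may not compare arms of the same hairpin alone. miR-455-5p had 2510 and 3007 reads against 1433 and 324 of miR-455-3p, and the 5p share was 63.7% and 90.3%. The other arm, miR-455-5p, had a ratio of -0.09.

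Other large differences in favour of the 5p arm were in miR-365a (2.47), miR-629 (2.40), miR-362 (2.23) and miR-33b (2.02). For miR-365a the arms cannot be tied to the same hairpin, since miR-365a-3p and miR-365b-3p, made at separate loci, are identical in sequence. In favour of the 3p arm were miR-576 (-2.12), miR-425 (-2.05), miR-140 (-1.84), miR-642a (-1.83) and miR-151a (-1.80). For miR-140, the 3p arm had 3627 and 15548 reads (1.75) and the 5p arm 838 and 1001 (-0.09). The arm with more reads switched in 9 hairpins: miR-126, miR-1307, miR-135b, miR-28, miR-330, miR-423, miR-589, miR-590 and miR-664. In spheres the margin was small for miR-589 (3645 reads of the 5p arm, 3558 of the 3p arm) and miR-590 (1450 and 1565). miR-664 was scarce, with 58 and 86 reads in parental cells. In miR-1307, whose hairpin lies in an exon of ATP5MD (chromosome 10, 103394253 to 103394401, minus strand), the 5p arm had 1786 and 14151 reads and the 3p arm 3775 and 9085, a 5p share of 32.1% and 60.9%. In miR-28 the 5p share went from 57.7% to 29.6%. Both arms were past 2-fold in the same direction in 8 hairpins; miR-31 and miR-15b were such on the lower side and miR-148b on the higher side.

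**Figure D4:**
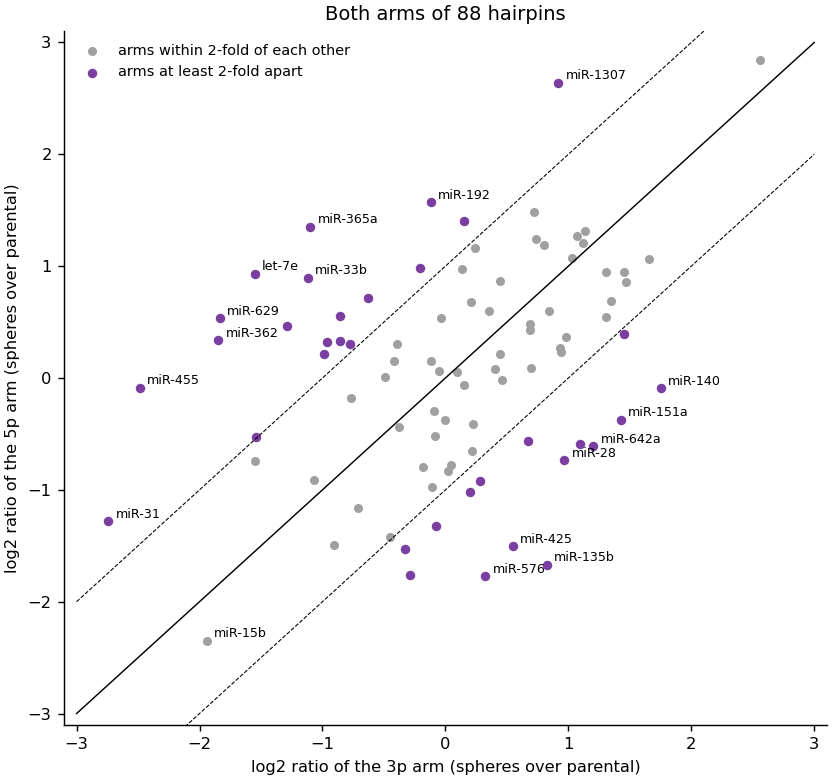
Log2 ratio of the 5p arm (y) against that of the 3p arm (x), paired by name, for 88 hairpins, spheres over parental cells. The solid line marks equal ratios and the dashed lines a 2-fold difference between arms. The 34 purple points lie on or outside the dashed lines, with let-7e and miR-455 far above them and miR-135b and miR-425 far below.

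Some miRNAs had reads in only 1 of the libraries, 81 in parental cells and 166 in spheres, all of them scarce. miR-4508 had 75 reads in the sphere library and 0 in the parental one, 19.6-fold higher when 3 reads are taken as the parental floor. In the same way miR-139-3p (22 reads) was 5.76-fold higher, miR-1283 (16 reads) 4.19-fold, and miR-125b-2-3p and miR-548al (13 reads each) 3.41-fold. These folds take the reads found in the other library as exact, so they are not lower bounds. The counting intervals of the log2 ratios began at 2.11 for miR-139-3p, 1.60 for miR-1283 and 1.26 for miR-125b-2-3p. Of names read in parental cells alone, miR-3064-3p had the most, 6 reads, and was 2.54-fold lower when 3 reads are taken as the sphere floor. Its log2 interval reached up to -0.58. miR-4761-5p and miR-4799-5p had 4 reads and miR-539-5p and miR-1273c had 3, with intervals that reached above 0, so a difference was not detectable at this depth.

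The calls nearest the 2-fold limits rested on small margins. Just inside the higher side were miR-99b-3p (1.03), miR-148b-5p (1.06), miR-155-5p (1.07) and miR-21-3p (1.07), and just outside were miR-340-5p (0.98), miR-532-5p (0.97), miR-28-3p (0.97) and let-7c (0.96). Just inside the lower side were miR-339-5p (-1.02), let-7d-3p (-1.07) and the 2 miR-365 names (-1.10), and just outside miR-589-3p (-0.99), miR-374b-5p (-0.98), miR-7-5p (-0.97) and miR-331-3p (-0.96). Intervals lay wholly past 2-fold for 35 of the 39 higher and 28 of the 34 lower miRNAs.

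Base composition was compared for the 198 of 226 miRNAs with a RefSeq sequence. Guanine made up a median of 27.3% of the bases in the 33 higher ones with a sequence, 21.7% in the 31 lower ones and 27.3% in the 134 between. The rank correlation of the ratio with the share of guanine was 0.34 and with GC content 0.16, and with A, C and U it was between -0.07 and -0.05. These are descriptions across miRNAs that share seeds and libraries. Median length was 22 bases in each of the 3 sets.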

How the data were processed

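The labels' protocols name the TruSeq Small RNA kit and total RNA as input. For HT29 the authors deposited read counts per mature miRNA under miRBase R19 names, and for HCT15 values in RPKM (both per the file headers); the latter enter only 1 alternative scaling. The submitters' processing notes give hg19 as the build. No aligner, read trimming or rule for reads that match several names is given in the sources used here.

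HT29 counts were scaled by TMM (edgeR 4.0.16, R 4.3.3) on the 2 HT29 libraries. Log2 ratios used a prior count of 2 and exact conditional binomial 95% intervals (Python 3.11.15, numpy 2.4.6, pandas 2.3.3, scipy 1.17.1); arm differences used the conditional odds ratio, with Woolf's interval for the 5 hairpins with at least 3000 reads in each arm and library. Called means at least 2-fold with a mean of at least 50 CPM, or 10 CPM for lists and arms. With 1 library a culture no test was run and no p-value is given. Code was tested on simulated data.

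Named are the 12 highest and 12 lowest ratios, the 10 most abundant miRNAs of each library, up to 4 members with most reads of each list, 6 hairpins per direction by arm difference, 10 seed families by reads and 5 per direction by ratio, up to 5 miRNAs per library with no read in the other, and 4 either side of each limit; others were chosen after their values were seen. Members and lists were chosen with earlier results of these data known. A list's member is its arm with most reads. RefSeq (GRCh38.p14) gave sequences for 1590 names, 14 of them names without an arm matched by hand, and GENCODE 29 (GRCh38) gave host genes; no hg19 position was used.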

Additional observations from a re-analysis of the deposited data

How the results depend on the processing

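The count of miRNAs at least 2-fold higher, 39 as reported, was 11 when libraries were scaled to total listed reads and 24 when scaled to total reads without the 10 most abundant miRNAs. It was 64 with a minimum mean of 10 CPM and 215 with no minimum, where most added names are scarce. The count at least 2-fold lower, 34 as reported, was 74 with total listed reads, 18 with a minimum mean of 200 CPM and 137 with no minimum. Lesser moves were 28 to 37 higher and 38 to 44 lower with upper quartile, RLE and 4-library TMM scaling, and 28 higher and 24 lower with the arms of each hairpin summed. An alternative chosen after seeing the data, without entries listed as fragments of other RNAs, gave 36 higher and 34 lower. All 55 named miRNAs past 2-fold kept 1 sign under the 6 scalings, which was fixed in advance, as the largest shift was 0.79 downwards. Of them 38 stayed past 2-fold under each, where the lower ones had to stay. No library could be left out, since each culture had 1. No paired analysis was possible because each culture had 1 library. Depth limits only scarce names: 3 reads are 0.517 CPM in parental cells and 0.234 in spheres. The spread between cultures is unknown.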
